A study of Homo sapiens with 6 samples.

Results

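The oxygen sensor genes VHL, EGLN1, EGLN2, EGLN3 and HIF1AN were followed through the input RNA and the N6-methyladenosine (m6A) peaks of Kasumi-1 cells, an established human acute myeloid leukaemia line. The genes were taken by name, and all 5 were present among the 32917 genes of the expression table. They held 15 of the 42634 peaks of the m6A peak list, and 4 of the 19983 peaks that the authors compared between treatments. Those 4 peaks lay in VHL, EGLN1 and HIF1AN. The cells, labelled wild type, received 100 uM CoCl2, a hypoxia mimic, and 10 nM echinomycin for 24 hours. This combined treatment gave 6 libraries from 3 biological replicates, 3 after immunoprecipitation with an m6A antibody (IP) and 3 of the fragmented poly(A) RNA before it (input). The authors' comparison set the combined treatment against CoCl2 without echinomycin, so both sides carried CoCl2, though the dose and time of the CoCl2 side are not given in the labels used. No library of CoCl2 alone was analysed here, and that side enters only through the authors' fold changes.

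Cells sense oxygen through enzymes that use it to hydroxylate the alpha subunits of the hypoxia-inducible factors (HIFs). EGLN1, EGLN2 and EGLN3, also called PHD2, PHD1 and PHD3, hydroxylate prolines. VHL, the substrate receptor of a ubiquitin ligase, binds the hydroxylated alpha subunit and sends it to degradation. HIF1AN, also called FIH, hydroxylates an asparagine and so blocks binding of the coactivators CREBBP and EP300. All of these hydroxylases hold iron, and cobalt ions interfere with them. EGLN1 and EGLN3 are themselves known HIF target genes. Echinomycin binds DNA at sequences that include the core of the HIF binding site, ACGTG or GCGTG.

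Because echinomycin acts on that core, the 60 bases before the annotated transcription start were searched for it in the RefSeq promoter windows of build GRCh38.p14. Windows were matched by symbol for EGLN1, EGLN2, EGLN3 and HIF1AN, 4 of the 5 members. They are written 5′ to 3′ along the gene, with the core in capitals.
EGLN1, chr1:231422288-231422347, minus strand: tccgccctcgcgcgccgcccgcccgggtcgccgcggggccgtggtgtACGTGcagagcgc
EGLN2, chr19:40799131-40799190, plus strand: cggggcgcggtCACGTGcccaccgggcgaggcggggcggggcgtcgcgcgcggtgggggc
EGLN3, chr14:33951075-33951134, minus strand: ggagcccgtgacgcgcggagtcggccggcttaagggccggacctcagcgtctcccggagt
HIF1AN, chr10:100535883-100535942, plus strand: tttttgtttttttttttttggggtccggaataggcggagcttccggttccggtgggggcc

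EGLN1 held ACGTG with its first base at -13 from the start. EGLN2 held CACGTG, which reads as the core on both strands, with its first base at -49. Neither ACGTG nor GCGTG was found on either strand in the whole 300-base windows of EGLN3 and HIF1AN, or in the window at a second EGLN2 start, which is not printed. Among all 35116 RefSeq promoter windows, 21.4% held ACGTG on either strand and 48.4% held ACGTG or GCGTG. In the 60 bases before the start the shares were 5.76% and 16.0%, and CACGTG stood in 2.26%. As written, the printed bases of EGLN2, EGLN3 and HIF1AN lie inside the annotated gene spans used for the peaks below. For these genes the RefSeq start is thus not the annotated gene start given there, whose build is not named. A match is a description of the sequence, and binding was not measured in these data.

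In the input RNA, ordered by mean level, VHL was highest, EGLN1, HIF1AN and EGLN2 lay nearer to each other, and EGLN3 was close to 0. Levels are given in FPKM, fragments scaled by transcript length and library size, which allows genes to be set side by side. VHL had 39.6, 40.4 and 38.5 FPKM in replicates 1, 2 and 3, a mean of 39.5 ± 0.962 FPKM (SD, n = 3). Its mean lay above 94.3% of the 12612 genes with a mean of 1 FPKM or more, whose median was 5.36 FPKM. EGLN1, the main prolyl hydroxylase acting on HIF-1 alpha, had 16.7, 14.8 and 15.7 FPKM, a mean of 15.7 ± 0.944 FPKM (SD, n = 3). HIF1AN had 14.0, 15.4 and 14.0 FPKM, a mean of 14.5 ± 0.835 FPKM (SD, n = 3). The ranges of EGLN1 and HIF1AN overlapped, and in replicate 2 HIF1AN was the higher of the pair. EGLN2 had 8.89, 10.4 and 9.11 FPKM, a mean of 9.48 ± 0.833 FPKM (SD, n = 3), and its 3 libraries lay below all 3 of HIF1AN. EGLN3 had 0.00955, 0.00554 and 0.00689 FPKM in replicates 1, 2 and 3. Libraries were made from bulk RNA, so fewer cells with a transcript and less of it per cell cannot be told apart.

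**Figure D1:**
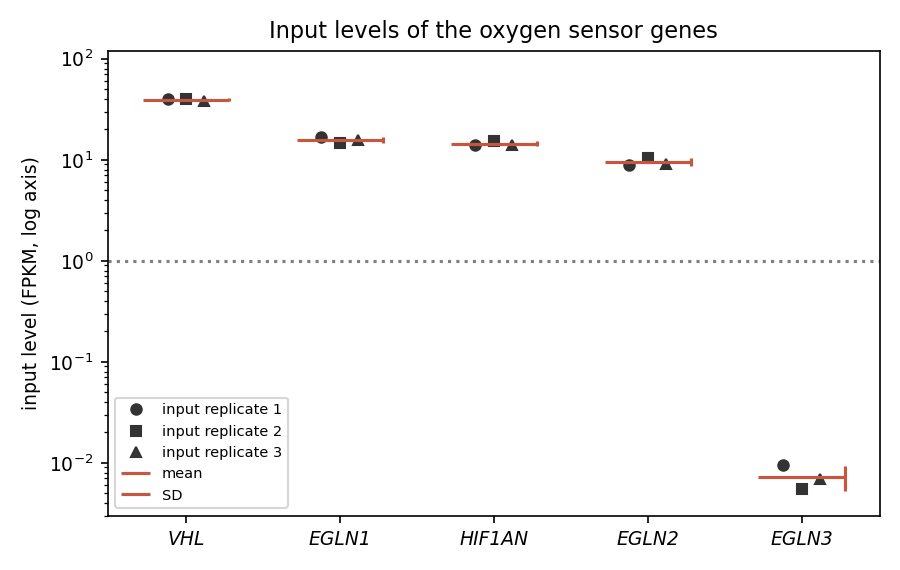
Input level of each oxygen sensor gene in FPKM on a log axis, with 1 symbol per input replicate of the combined treatment (n = 3), a line for the mean and a bar for the SD. The dotted line marks 1 FPKM. VHL lies near 39.5 FPKM, EGLN1, HIF1AN and EGLN2 between 8.89 and 16.7 FPKM, and EGLN3 under 0.01 FPKM.

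Of the summed EGLN level, 25.2 ± 0.397 FPKM (SD, n = 3), EGLN1 supplied 65.3%, 58.7% and 63.3% in replicates 1, 2 and 3 and EGLN2 34.7%, 41.3% and 36.7%. EGLN3 supplied at most 0.0373%. The EGLN2 share leaves out RAB4B-EGLN2, a same-strand read-through name that overlaps EGLN2, with 1.36, 0 and 2.68 FPKM in replicates 1, 2 and 3. How reads were divided between these names is unknown from these values. The FPKM of VHL was 2.52 ± 0.185 times that of EGLN1 and 2.73 ± 0.108 times that of HIF1AN (SD of the ratio over 3 libraries).

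Neighbours in this order were set against each other on the log2(FPKM + 1) scale with an exact two-sided permutation test. With 3 values against 3 that test cannot go below 0.1, so no pair could pass 0.05. The difference in mean log2 level was 1.28 for VHL minus EGLN1, 0.57 for HIF1AN minus EGLN2 and 3.38 for EGLN2 minus EGLN3. In each of these 3 pairs the groups did not overlap and the exact p was 0.1, or 0.133 after Benjamini-Hochberg adjustment over the 4 pairs. EGLN1 minus HIF1AN was 0.11, with an exact p of 0.2. That value came to 0.05 without replicate 1 and 0.20 without replicate 2, so the order of EGLN1 and HIF1AN was within the spread of the libraries. The size for EGLN2 minus EGLN3 depends on the pseudocount and was 6.48 on the log2(FPKM + 0.1) scale.

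The libraries carried most, but not all, of the markers chosen for a myeloid progenitor line. Of 8 such markers 6 had a mean of 1 FPKM or more, led by MPO, a granule peroxidase, at 56.2 FPKM and the receptor gene KIT at 40.4 FPKM. The lowest of the 6 was CD33 at 1.48 FPKM. PRTN3 at 0.266 FPKM and ELANE at 0.0185 FPKM did not reach 1 FPKM. The summed level over the 8 was 115 to 125 FPKM per library. Of 6 markers of T cells, B cells and epithelium with a value in the table, CD3D at 32.1 FPKM and EPCAM at 8.79 FPKM reached 1 FPKM. Those 6 summed to 39.4 to 44.3 FPKM per library, with CD3E at 0.181 FPKM and CDH1 at 0.0348 FPKM. Their part in the sensor levels was not tested. The FPKM sums of the 3 input libraries lay between 202792 and 206876, and their read depth is unknown from these values.

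The m6A peak list of the combined treatment held peaks under the name of every sensor gene, but mostly weak ones. A listed peak was common, present in 79.7% of all genes with a mean of 1 FPKM or more. The authors' fold enrichment, IP over input on a linear scale, ran from 1.17 to 9.31 over the 15 peaks, with a median of 2.35 against 4.53 over all listed peaks. Of the 15 peaks, 12 passed the authors' FDR of 0.05, which 87.4% of all listed peaks did. A fold enrichment of 2 or more was reached by 8 of the 15 peaks, against 87.0% of all listed peaks. Peaks of 1 gene that shared exon bases were repeats of each other in part, and the 15 peaks came to 12 separate stretches. These enrichments are the authors' own, 1 for each peak, and carry no error. Positions are given as the tables state them, and the build is not named in the sources used here.

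VHL carried 4 listed peaks in 3 separate stretches. The main one, labelled 5' UTR, ran on chromosome 3 from 10141778 to 10150128 with a fold enrichment of 2.72 and a log10 FDR of -106. It was not confined to the 5' end: its blocks of 410, 476, 123 and 342 bases began 0, 768, 4736 and 8009 bases from the gene start and summed to 1351 bases. In the 3' UTR, overlapping peaks from 10150425 to 10150608 had fold enrichments of 1.28 and 1.30, at percentiles 0.775 and 0.915 of all listed peaks. The last peak, 121 bases from 10153427 to 10153547 near the end of the gene, had a fold enrichment of 1.70 and a log10 FDR of -6.59. All 4 VHL peaks thus passed the authors' FDR, including those at 1.28 and 1.30.

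EGLN1, on the minus strand of chromosome 1, carried the most peaks, 5 in 3 separate stretches, all at an FDR under 0.05. Its strongest was a single block of 1286 bases at the start of the gene, labelled 5' UTR, from 231421002 to 231422287, with a fold enrichment of 5.55 and a log10 FDR of -58.3. Near the other end of the gene, the 3' UTR peaks from 231366052 to 231367713 and from 231366046 to 231370604 shared most of their bases and had fold enrichments of 4.24 and 4.33, with log10 FDR of -277 and -278. These were the lowest FDR values of the 5 genes. The remaining peaks had fold enrichments of 1.53 and 1.57 and shared a block that starts 48188 bases into the gene. One of them joined this block to 146 bases lying outside the annotated gene, at -40296 to -40151 bases from its start. AL445524, a gene of the same strand that overlaps EGLN1 and spans those bases, had 0, 0 and 0.0633 FPKM.

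EGLN2 had a single peak under its own name, while the strongest enrichment inside the gene stood under another name. Its own peak, labelled 5' UTR, lay on chromosome 19 from 40799026 to 40799599 in blocks of 23, 72 and 175 bases, with a fold enrichment of 2.35 and a log10 FDR of -13.3. Overlapping 3' UTR peaks of 570 and 628 bases, from 40807807 to 40808434, reached the annotated end of EGLN2 and were assigned to RAB4B-EGLN2, the read-through transcript from the neighbouring RAB4B gene. Their fold enrichments were 8.04 and 8.69, with log10 FDR of -264 and -261. RAB4B-EGLN2 had 1.36 and 2.68 FPKM in replicates 1 and 3 and was listed at 0 in replicate 2, against 8.89 to 10.4 FPKM for EGLN2. A further overlapping pair of peaks from 40800346 to 40801302, inside the EGLN2 span, was assigned to the locus AC008537 with fold enrichments of 2.43 and 2.44. Reads of EGLN2 and of these same-strand names cannot be told apart where they overlap.

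HIF1AN had 3 listed peaks, of which only the 3' UTR peak passed the authors' FDR. That peak, in blocks of 72 and 259 bases on chromosome 10 from 100547179 to 100548351, had a fold enrichment of 1.95 and a log10 FDR of -47.5. The peak of 91 bases at the start of the annotated gene, from 100529072 to 100529162, had a fold enrichment of 3.03 and an FDR of 0.129. It lies where NDUFB8, at 7.67 FPKM, and AL133352, at 4.34 FPKM, overlap on the opposite strand. The third, from 100536129 to 100536311 in the first exon of an annotated transcript, had a fold enrichment of 1.17 and an FDR of 0.175.

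The EGLN3 peaks had the highest fold enrichments of the 5 genes, in a gene with an input level under 0.01 FPKM. They were 385 and 384 bases long, on chromosome 14 from 34416687 to 34417071 and from 34417130 to 34417513, with fold enrichments of 9.31 and 8.38 and FDRs of 0.0339 and 0.124. Both carried the exon of AL356806, a sulfotransferase pseudogene with 0.00955, 0 and 0 FPKM, and both reached EGLN3 only through a transcript of the annotation that stretches the gene over 538548 bases. The same span holds SPTSSA, a gene of the same strand with 12.8 FPKM. Of 5145 genes with a mean under 0.01 FPKM, 10.1% had a listed peak, and 6.86% of all listed peaks carried the exon of a gene other than their own.

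**Figure D2:**
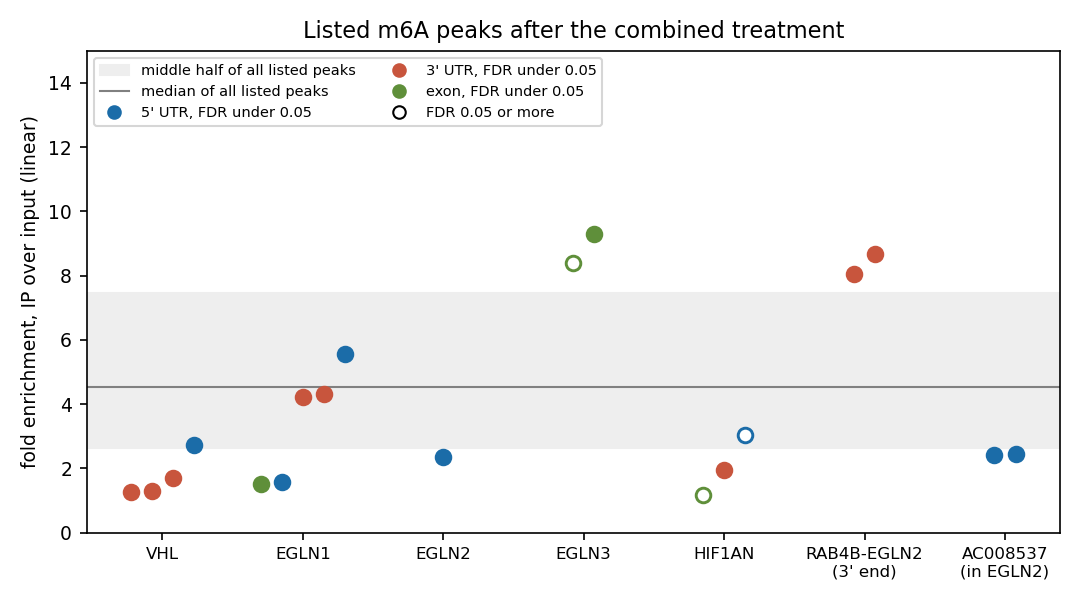
Fold enrichment (IP over input, linear axis) of each listed m6A peak by gene name, coloured by region, with open symbols for peaks that did not reach an authors' FDR below 0.05. The grey band spans the quartiles 2.63 and 7.45 and the line the median of 4.53 over all 42634 listed peaks. The VHL peaks lie from 1.28 to 2.72, EGLN1 reaches 5.55, and the peaks under the read-through name at the 3' end of EGLN2 reach 8.69.

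Set against genes of like input level, within 2-fold of the sensor's own FPKM, VHL, EGLN1, HIF1AN and EGLN2 stood at different places. EGLN3 was not compared in this way. Only like-level genes with a listed peak entered the medians and percentiles. They were 84.8% of the genes near VHL, 86.5% near EGLN1, 86.5% near HIF1AN and 85.5% near EGLN2. Among them the highest fold enrichment per gene had a median of 4.75 near VHL, 5.74 near EGLN1, 5.78 near HIF1AN and 6.21 near EGLN2. EGLN1, with 5.55, was at percentile 47.7 of its neighbours with a listed peak. VHL, with 2.72, was at percentile 23.2, HIF1AN, with 3.03, at 19.4, and EGLN2, with 2.35, at 8.70. The HIF1AN value is that of the peak which did not pass the FDR, and the EGLN2 value leaves out the peaks under the read-through name.

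**Figure D3:**
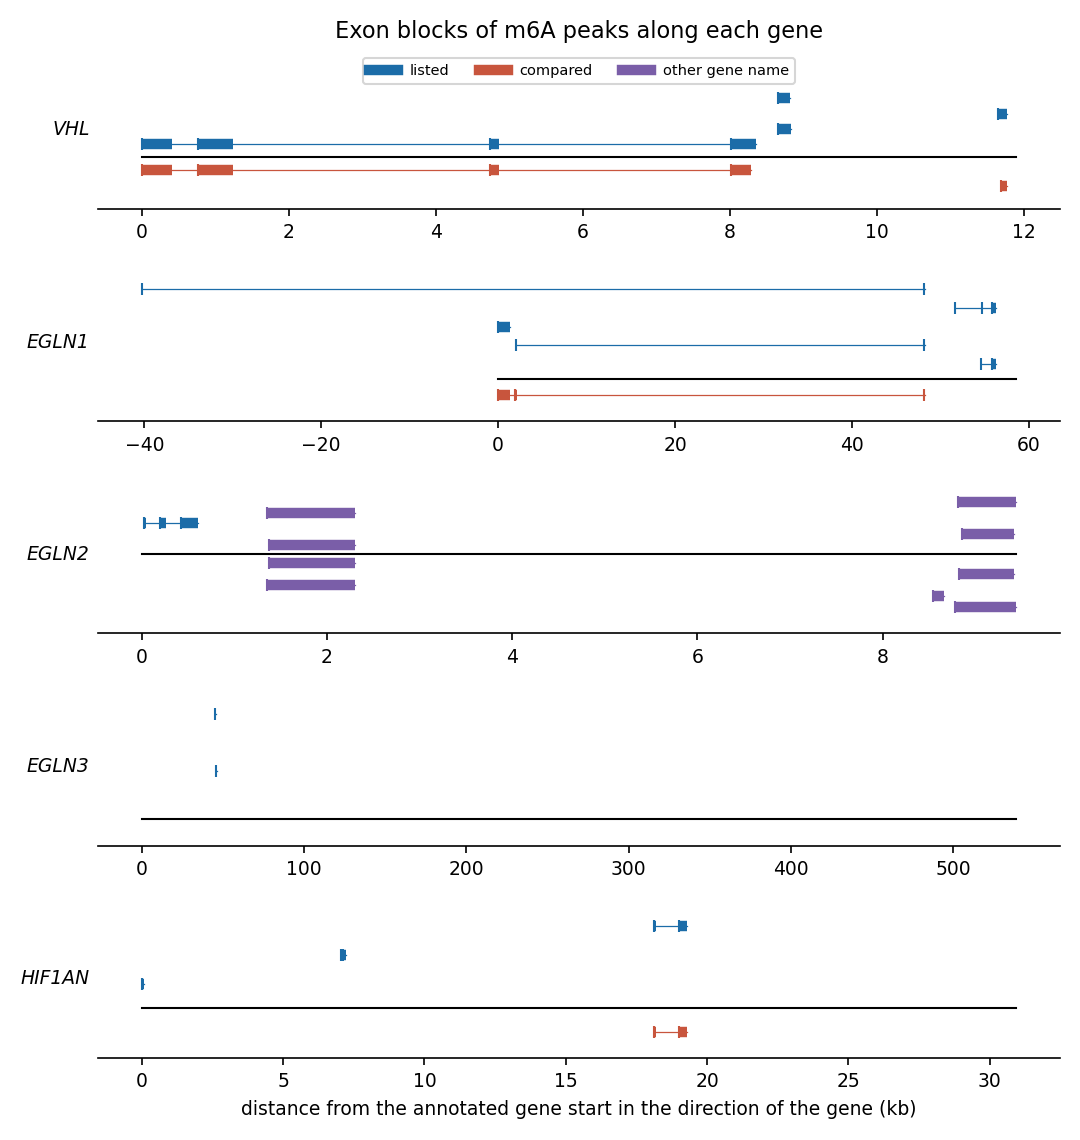
Exon blocks of the peaks along each gene, by distance in kb from the annotated gene start, with listed peaks above and compared peaks below the gene line and thin lines joining the blocks of 1 peak. Ticks mark block starts, and purple blocks inside EGLN2 carry the names RAB4B-EGLN2 or AC008537. In VHL the compared peaks cover blocks from 0 to 8290 bases and a stretch starting at 11679 bases, and the EGLN1 stretch near its 3' end has no compared peak.

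Setting the combined treatment against CoCl2 asks how m6A enrichment differs when echinomycin is present beside the hypoxia mimic, as far as the CoCl2 dose and time were the same. All 4 compared sensor peaks passed the authors' FDR of 0.05, 2 lower and 2 higher, and none changed by 2-fold or more. Over all compared peaks 68.9% passed, 45.8% lower and 23.1% higher, and 57.3% passed an FDR of 0.01, as all 4 sensor peaks did. A change of 2-fold or more at an FDR under 0.05 was listed for 17.2% of all compared peaks. The direction was read from the order in which the authors' table names the treatments. As a check, 3 of 49 peaks with a log2 fold change from -8 to -4 shared a base with a listed peak, against 68 of 68 from 4 to 10. The deposited label says only log2 fold change, and the value is read here as one of m6A enrichment. RNA levels were not compared between the treatments, and their part in these fold changes was not tested.

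VHL had 1 lower and 1 higher peak. In the authors' deposited table the peak labelled 5' UTR, 1291 bases in 4 blocks spread from 10141778 to 10150068, was lower by a log2 fold change of -0.53 (log10 FDR -45.6), a ratio of 0.694. In the authors' deposited table the 3' UTR peak of 91 bases from 10153457 to 10153547 was higher by 0.89 (log10 FDR -2.08), a ratio of 1.85. The first value lies near the median of all compared peaks, -0.43, and at percentile 39.9 of compared 5' UTR peaks. The second lies at percentile 89.5 of compared 3' UTR peaks. Of the 5' UTR peaks compared, 43.3% were lower and 28.1% higher at the same FDR, and of the 3' UTR peaks 53.7% were lower and 22.9% higher. Genes with peaks changed both ways were common, at 34.5% of the 3368 genes with at least 2 changed peaks. Whether the VHL peaks differ from each other was not tested, since neither has an error.

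EGLN1 had the smallest change of the 4 sensor peaks. In the authors' deposited table its compared peak, from 231374033 to 231422287 in blocks of 67, 168 and 1290 bases, was lower by -0.24 (log10 FDR -5.15), a ratio of 0.846. It covered all 1286 bases of the listed peak at the gene start. The strongly supported EGLN1 stretch near the 3' end had no compared peak.

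HIF1AN had higher m6A enrichment at a peak in its 3' UTR. In the authors' deposited table the peak from 100547209 to 100548351, in blocks of 42 and 259 bases, was higher by 0.44 (log10 FDR -4.81), a ratio of 1.35, at percentile 76.1 of compared 3' UTR peaks. All 301 of its bases lay in the listed 3' UTR peak of fold enrichment 1.95. The higher peaks of VHL and HIF1AN thus both overlapped 3' UTR peaks with a fold enrichment under 2 in the combined treatment.

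EGLN2 and EGLN3 had no compared peak under their own names. A compared peak was present in 63.3% of all genes with a mean of 1 FPKM or more, a limit that EGLN3 did not reach. Among genes within 2-fold of the EGLN2 level the share was 72.1%. Inside the EGLN2 span, 5 compared peaks carried other names, and 4 of them passed the authors' FDR, all lower. These were an overlapping pair under each name, so they are not 4 separate stretches. Over all compared peaks 68.9% passed, with 45.8% lower. At the 3' end, the overlapping RAB4B-EGLN2 peaks of 600 and 658 bases were at -0.22 (log10 FDR -3.16) and -0.24 (log10 FDR -2.97) in the authors' deposited table. A separate RAB4B-EGLN2 peak of 120 bases did not pass, with a value of -0.33 (FDR 0.146) in the authors' deposited table. The overlapping AC008537 peaks were at -0.13 and -0.16 in the authors' deposited table, with FDRs of 0.0251 and 0.00708.

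The partners of the sensors were read from 4 lists of 31 genes, each gene by its compared peak of lowest authors' p. Among all genes read this way 53.1% were lower and 22.8% higher, with a median log2 fold change of -0.50. Of 21 partners with a compared peak, 12 were lower, 6 higher and 3 did not pass, with a median of -0.49. In the VHL ligase complex, 4 of 4 genes were above 1 FPKM. All 4 had a listed peak, as did 79.7% of all genes at that level. Only ELOC, an adaptor subunit, was compared, at -0.49 in the authors' deposited table. A compared peak was present in 63.3% of all genes at that level. Input levels in the complex ran from 3.12 FPKM for RBX1, the RING subunit, to 30.5 FPKM for ELOB, the other adaptor, against 39.5 FPKM for VHL itself.

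Of the HIF subunits, HIF1A, the main substrate of the sensors, had 25.4 ± 0.832 FPKM and EPAS1, which encodes HIF-2 alpha, 4.38 ± 0.153 FPKM (SD, n = 3). Their compared peaks stood at -0.89 and 0.72 in the authors' deposited table, and the HIF1A peak carried an exon of HIF1A-AS3. Of 9 other oxygen-dependent enzymes and relatives 6 were compared, 4 lower, 0 higher and 2 not passing. Over all genes read this way 53.1% were lower and 22.8% higher. The 4 lower genes include a gene with a mean of 0.313 FPKM and no listed peak. The most strongly supported were ADO, a thiol dioxygenase that senses oxygen, at -0.95, HSPBAP1 at -1.35 and RIOX1, a ribosomal oxygenase, at -0.66, all in the authors' deposited table. Of 13 regulators of the sensors or of their action on HIF 12 were compared, 6 lower, 5 higher and 1 not passing. OS9, a lectin of the endoplasmic reticulum reported to bind EGLN proteins, was at 0.82 in the authors' deposited table. CITED2, which competes with HIF for the coactivators, was at -0.41 and CREBBP at -0.82 in the authors' deposited table. CITED2 also had 1 changed peak that was higher. Of the 12 partner genes with at least 2 changed peaks, 5 had peaks changed in both directions, as VHL did, a share of 41.7% against the 34.5% given above for all such genes.

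**Figure D4:**
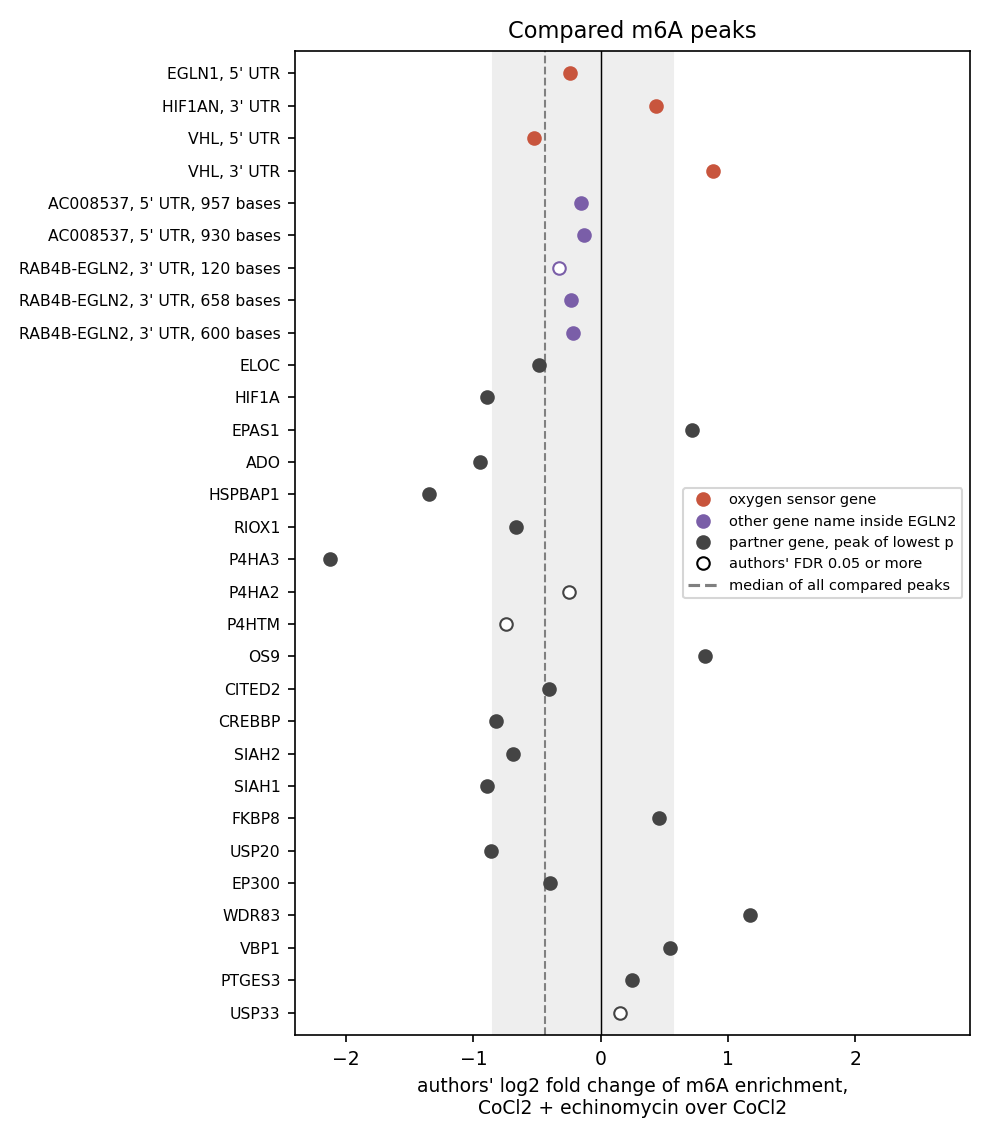
Authors' log2 fold change of m6A enrichment, CoCl2 plus echinomycin over CoCl2, for each compared peak of the sensor genes, each compared peak under another name inside EGLN2, and the peak of lowest p of each partner gene. Open symbols did not pass an authors' FDR of 0.05, the grey band spans the quartiles of all compared peaks, -0.84 and 0.57, and the dashed line their median of -0.43. Under the sensor genes' own names, the EGLN1 peak and the multi-exon VHL peak lie below 0 and the 3' UTR peaks of VHL and HIF1AN above 0, while the 3' UTR peaks under the read-through name inside EGLN2 lie below 0.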

How the data were processed

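The members and gene lists were chosen with earlier results of these data known. ChIPseeker, HOMER, HISAT2 and fastp are named per the submitters' processing notes, without roles or versions. Which tool called peaks or estimated FPKM, the genome build and the pooling of replicates were not given in the sources used here. Per the labels' protocols the libraries were strand-marked. The authors deposited FPKM per gene and input library, and 6 other per-sample columns of that table were not used here. Low FPKM values showed no steps of whole reads. The authors deposited for each listed peak a fold enrichment as a linear ratio. For each compared peak they deposited a log2 fold change and a p-value. FDRs were deposited as log10 values, read as a score because they reach far below 0 or minus infinity.

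Peaks were matched by gene name, exon blocks were built from the deposited sizes and starts, and an overlap was at least 1 shared base. A peak passed at an authors' FDR under 0.05, and a gene counted as expressed at a mean of 1 FPKM or more. Levels were compared on log2(FPKM + 1) with an exact permutation test. The named genes were the 5 members with every peak, and from each partner list up to 3 changed genes of lowest authors' p, with the genes that overlap a member. Other partner genes appear as list counts or ends of a range, and 4 are named under the other observations. Functions were tested on simulated data. Calculations ran in Python 3.11.15 with scipy 1.17.1, pandas 2.3.3 and numpy 2.4.6, and figures in matplotlib 3.10.9.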

Additional observations from a re-analysis of the deposited data

How the results depend on the processing

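Of 4 changed sensor peaks in the authors' deposited table, 4 also passed an FDR of 0.01, 3 remained with 1 peak per gene, and 0 (0 of the 2 lower ones) changed by 2-fold or more. With the peaks under other names inside the EGLN2 span, added after the data were seen, 8 peaks changed, though the added ones overlap each other in pairs. Lower peaks numbered 1 when each gene was read by its peak of highest absolute fold change, an alternative also added afterwards, because VHL was then read at its 3' UTR. Of the 15 listed sensor peaks 8 had a fold enrichment of 2 or more. Over all compared peaks 13773 passed an FDR of 0.05 and 3434 also a limit of 2-fold.

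Ranked among genes at 5 FPKM or more, the percentile of EGLN2 was 38.4 where it was 67.9 among genes at 1 FPKM or more. The order of the input levels kept its direction under every scale, scaling and omission tried. Leaving out 1 replicate gave 1.22 to 1.31 for VHL minus EGLN1, 0.05 to 0.20 for EGLN1 minus HIF1AN, 0.55 to 0.59 for HIF1AN minus EGLN2 and 3.31 to 3.42 for EGLN2 minus EGLN3 on the log2 scale. With a replicate block, pairing both genes within a library, the differences stay the same by construction. The exact p was then 0.25, the smallest 3 pairs allow, for 3 pairs and 0.5 for EGLN1 minus HIF1AN. No paired analysis was possible between IP and input libraries because the files hold no value per IP library. Without counts or values per IP library, no interval could be given for any peak.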

Other observations

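Some partners at high or moderate levels had no listed peak, 4 of 26 partner genes with a mean of 1 FPKM or more, where 20.3% of all such genes had none. They were P4HA1, a collagen prolyl hydroxylase, at 49.6 ± 1.58 FPKM, ARNT, the HIF beta subunit, at 14.6 ± 0.227 FPKM, ING4, reported to act with EGLN1, at 13.8 ± 1.70 FPKM and P4HTM, a transmembrane prolyl hydroxylase, at 9.52 ± 0.893 FPKM (SD, n = 3). These genes were chosen after their values were seen. P4HTM still had a compared peak, at -0.75 in the authors' deposited table, which did not pass the authors' FDR.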
